A study of Rattus norvegicus with 12 samples.

Results

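AP-1 is a family of transcription factors made of pairs of Fos, Jun and related proteins. The 9 genes described here are Fos, Fosb, Fosl1 and Fosl2 of the Fos family, Jun, Junb and Jund of the Jun family, and the related factors Atf3 and Batf3. They are 9 of the 28111 gene names in the files, and each has 1 row. The set was chosen by name with results of these same libraries already known, so the values that selected the genes are those described below. For that reason each difference of these genes is given as a description with its standard error and without a p-value.

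The libraries came from primary neuroglial cultures of Wistar rat cortex, which hold neurons together with glia, at 10 days in vitro. RNA was collected 4 h after the addition of material secreted by glial progenitor cells derived from human induced pluripotent stem cells. The 4 conditions, with 3 libraries each, were intact cultures (control), the total secretome (45 µg/mL), proteins of 3-100 kDa (15 µg/mL) and extracellular vesicles (EV, 10 µg/mL). The doses differ between treatments, so a difference between treatments is a difference between these preparations at these doses. All cultures, controls included, had been given cytosine arabinoside, which limits the division of glia. The labels give the pups as P0, whereas the methods give postnatal days 1 to 2. The labels call the 3 libraries of a condition repeats. The study describes its experiments in general as repeated on unrelated cultures and names a day covariate for the control and EV libraries, but which library belongs to which culture or day is not given in the sources used here. The errors therefore measure the spread between these libraries.

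Values are TPM (transcripts per 1000000), a share of the transcripts of a library corrected for transcript length. Levels of different genes can therefore be compared, but TPM keeps no read depth and no counting interval can be given. Between 14890 and 15392 of 32285 rows were above 0 in a library. A listed 0 may be a failed estimate, since Rps6, a ribosomal protein gene that every cell uses, was at 0 throughout. All 10 neuronal markers were above 0 in all 12 libraries, with a summed level of 3157 to 4055 TPM, and so were all 8 astrocyte markers (1019 to 1796 TPM) and all 8 markers of the oligodendrocyte lineage (121 to 256 TPM). The 8 microglial markers summed to at most 2.20 TPM, with Ptprc at 0 in all 12 libraries, and the 5 endothelial markers found in the files summed to at most 0.700 TPM. In bulk samples of this kind, a change in the number of cells of a type and a change in RNA per cell cannot be told apart.

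AP-1 proteins bind DNA as dimers through a basic region and a leucine zipper. Fos proteins do not form stable pairs with each other and bind DNA with a Jun partner, whereas Jun proteins also pair among themselves. Fos, Fosb, Jun, Junb and Atf3 are immediate early genes, whose transcription starts within minutes of growth factor, calcium or stress signals without new protein synthesis. Fosl1 and Fosl2 are classically induced later, partly by AP-1 itself, and Jund is present in most resting cells. In neurons the family is known from studies of activity, injury and axon regeneration, and in glia from studies of reactivity.

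Fos, the founding member of the family, was low in the control and higher in every treated library. It was at 4.46, 4.05 and 2.24 TPM in the control and at 21.8, 19.4 and 15.3 TPM after EV. With the 3-100 kDa proteins it was at 7.50, 11.2 and 13.0 TPM, and with the total secretome at 15.5, 22.5 and 21.6 TPM. The 3-100 kDa libraries lay above all controls and below all EV and secretome libraries, while EV and secretome libraries overlapped. On the scale of log2(TPM + 1), used for all differences below, Fos was higher than in the control by 2.13 ± 0.24 (SE, n = 3 against 3) after EV, by 1.37 ± 0.29 with the 3-100 kDa proteins and by 2.23 ± 0.25 with the secretome.

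Fosb encodes a protein whose truncated form accumulates in neurons under repeated stimulation. It was near 0 in the control (0, 0.0669 and 0.159 TPM) and after EV (0.151, 0.0940 and 0.343 TPM). It was at 4.89, 7.25 and 7.88 TPM with the 3-100 kDa proteins and at 5.61, 8.61 and 8.32 TPM with the secretome. Control and EV libraries overlapped, as did the other two conditions, and no library of the first pair came near those of the second pair. Fosb was not tested between EV and control because it did not reach 1 TPM in any of those libraries. Its difference from the control was 2.82 ± 0.25 with the 3-100 kDa proteins and 2.97 ± 0.25 with the secretome. With a pseudocount of 0.1 in place of 1 these were 5.34 and 5.51. Fosb passed the filter of 1 TPM in 3 libraries only through the treated groups.

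Fosl1, which encodes Fra-1, went from the lowest member of the Fos family in the control to the highest with the 3-100 kDa proteins. The control libraries were at 0, 0.138 and 0 TPM and the EV libraries at 4.36, 5.42 and 5.55 TPM. The 3-100 kDa libraries were at 22.1, 29.8 and 35.5 TPM and the secretome libraries at 5.59, 13.7 and 16.2 TPM. No 2 of the 4 conditions overlapped, although secretome replicate 1 lay just above the highest EV library. The difference from the control was 2.53 ± 0.22 after EV, 4.84 ± 0.25 with the 3-100 kDa proteins and 3.51 ± 0.40 with the secretome. Because the control is at or near 0, these sizes depend on the pseudocount, and with 0.1 in place of 1 they were 5.27, 7.76 and 6.36. Fosl1 passed the filter only through the treated groups.

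Fosl2, which encodes Fra-2, did not rank the conditions as Fos did. It was at 1.31, 0.710 and 1.26 TPM in the control and at 1.22, 0.501 and 0 TPM after EV, and these libraries overlapped. It was at 4.69, 3.12 and 5.38 TPM with the 3-100 kDa proteins and at 6.17, 5.75 and 5.95 TPM with the secretome, and the last 2 conditions did not overlap with each other or with the first 2. Its difference from the control was −0.48 ± 0.35 after EV, 1.38 ± 0.27 with the 3-100 kDa proteins and 1.76 ± 0.21 with the secretome. With a pseudocount of 0.1 these were −1.45, 1.95 and 2.40.

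**Figure D1:**
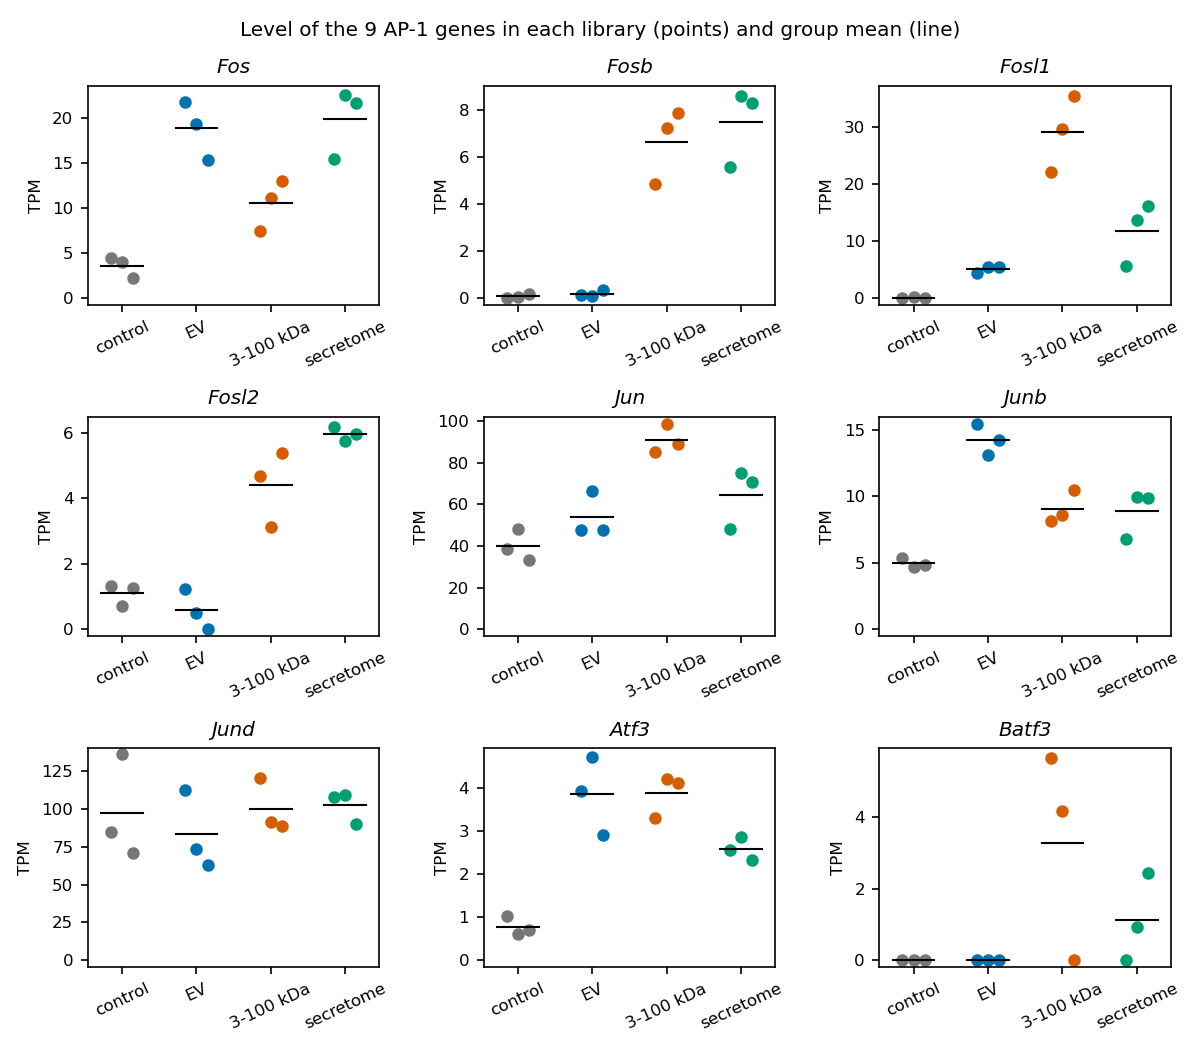
Each panel plots the TPM of 1 gene in the 12 libraries (points, 3 per condition) with the mean of the condition (line). Fos and Junb are highest or among the highest after EV, Fosb and Fosl2 are high only with the 3-100 kDa proteins and the secretome, and Jund overlaps in all 4 conditions.

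Promoter sequences were looked up for the 9 genes in the RefSeq table of build GRCr8, which held 6 of them (Fosb, Fosl1, Fosl2, Junb, Jund and Batf3). The 250 bases before the start of the gene were searched on both strands for TGANTCA (the AP-1 site), TGACGTCA (the cAMP response element), the CArG box bound by serum response factor, and TATAAA. The first 3 were searched as sites of factors known to act on this family, and TATAAA as the core promoter element. Fosb and Fosl1 are shown because they were at or near 0 in every control library and above 0 in every library of the 3-100 kDa proteins and the secretome, and capitals mark a match.

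Fosb, chr1:88089185-88089434, minus strand: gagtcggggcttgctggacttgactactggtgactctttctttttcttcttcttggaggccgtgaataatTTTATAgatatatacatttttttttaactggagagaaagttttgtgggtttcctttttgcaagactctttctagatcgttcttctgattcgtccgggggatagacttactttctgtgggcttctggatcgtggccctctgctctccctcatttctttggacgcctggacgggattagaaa

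Fosl1, chr1:212183635-212183884, plus strand: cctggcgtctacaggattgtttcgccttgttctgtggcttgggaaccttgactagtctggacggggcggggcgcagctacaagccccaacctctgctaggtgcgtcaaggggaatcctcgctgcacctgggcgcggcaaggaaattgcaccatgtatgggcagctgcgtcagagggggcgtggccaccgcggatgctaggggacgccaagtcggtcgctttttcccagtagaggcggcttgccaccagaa

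The Fosb stretch holds TTTATA, which is TATAAA on the other strand, 180 to 175 bases before the start, and TATAAA is found in 13.09% of 27457 rat promoters of this length. The Fosl1 stretch holds none of the 4 motifs. None of the 6 promoters holds TGANTCA, which 6.36% of all promoters hold, or a CArG box, which 1.5% hold. A match is a description of these letters and no match says nothing of any factor.

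Jun, the main partner of Fos proteins and a target of the Jun N-terminal kinases, was abundant in all conditions. It was at 38.4, 48.1 and 33.3 TPM in the control, at 47.6, 66.5 and 47.6 TPM after EV and at 48.3, 75.0 and 70.7 TPM with the secretome. With the 3-100 kDa proteins it was at 85.0, 98.8 and 89.1 TPM, above every other library. EV libraries overlapped with both control and secretome libraries. The secretome libraries lay above all controls, but secretome replicate 1 (48.3 TPM) exceeded control replicate 2 (48.1 TPM) only slightly. The differences from the control were 0.41 ± 0.18, 1.21 ± 0.16 and 0.69 ± 0.23 for EV, the 3-100 kDa proteins and the secretome.

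Junb, a Jun protein that can also oppose Jun, was highest after EV. It was at 5.34, 4.72 and 4.85 TPM in the control and at 15.4, 13.1 and 14.2 TPM after EV. With the 3-100 kDa proteins it was at 8.15, 8.58 and 10.4 TPM and with the secretome at 6.80, 9.92 and 9.87 TPM. These last 2 conditions overlapped with each other and lay between the control and EV without touching either. Junb was higher than in the control by 1.34 ± 0.18 after EV, by 0.77 ± 0.20 with the 3-100 kDa proteins and by 0.73 ± 0.22 with the secretome.

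Jund, the Jun protein of resting cells, was the most abundant of the 9 genes by group mean and overlapped in all conditions. Its means were 97.4 ± 34.6 TPM (SD, n = 3) in the control, 83.1 ± 26.1 TPM after EV, 99.9 ± 17.8 TPM with the 3-100 kDa proteins and 102.3 ± 10.6 TPM with the secretome. The control libraries, at 84.9, 136.5 and 70.8 TPM, spanned the treated ones apart from EV replicate 3. EV libraries were at 112.5, 73.8 and 62.9 TPM, 3-100 kDa libraries at 120.4, 91.0 and 88.3 TPM and secretome libraries at 107.5, 109.3 and 90.1 TPM. The differences from the control were −0.22 ± 0.30, 0.11 ± 0.24 and 0.14 ± 0.22 in the same order of treatments.

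The promoters of Junb and Jund are set side by side because one gene was higher in every treated library than in every control and the other was not. Capitals mark a match.

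Junb, chr19:40080876-40081125, plus strand: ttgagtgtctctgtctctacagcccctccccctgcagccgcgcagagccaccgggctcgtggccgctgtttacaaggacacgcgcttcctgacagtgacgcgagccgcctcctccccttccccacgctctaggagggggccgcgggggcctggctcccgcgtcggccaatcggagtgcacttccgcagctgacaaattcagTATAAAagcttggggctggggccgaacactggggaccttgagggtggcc

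Jund, chr16:18769772-18770021, minus strand: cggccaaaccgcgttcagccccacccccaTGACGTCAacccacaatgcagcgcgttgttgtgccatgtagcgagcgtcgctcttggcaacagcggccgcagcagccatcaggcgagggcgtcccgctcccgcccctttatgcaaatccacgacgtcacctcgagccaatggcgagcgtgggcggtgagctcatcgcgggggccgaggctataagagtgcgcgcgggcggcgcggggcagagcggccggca

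Junb holds TATAAA 49 to 44 bases before the start. Jund holds TGACGTCA 221 to 214 bases before the start, a motif of 1.70% of all promoters that none of the other 5 matched genes holds.

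Atf3, a stress-induced factor that marks injured neurons, was higher in every treated library than in every control. It was at 1.03, 0.600 and 0.712 TPM in the control and at 3.93, 4.71 and 2.89 TPM after EV. With the 3-100 kDa proteins it was at 3.30, 4.20 and 4.12 TPM, and with the secretome at 2.55, 2.85 and 2.32 TPM. EV and 3-100 kDa libraries overlapped, and all secretome libraries lay below both. The differences from the control were 1.43 ± 0.23, 1.47 ± 0.22 and 1.02 ± 0.21 for EV, the 3-100 kDa proteins and the secretome. With a pseudocount of 0.1 they were 2.16, 2.22 and 1.64.

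Batf3, a partner of Jun proteins known from dendritic cells, was listed at 0 in all control and EV libraries. It was at 5.64, 4.17 and 0 TPM with the 3-100 kDa proteins and at 0, 0.925 and 2.44 TPM with the secretome. Libraries of all conditions overlapped at 0, so no fold is given. It passed the filter only in the comparison of the secretome with the 3-100 kDa proteins, where the difference was −0.73 ± 0.74.

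**Figure D2:**
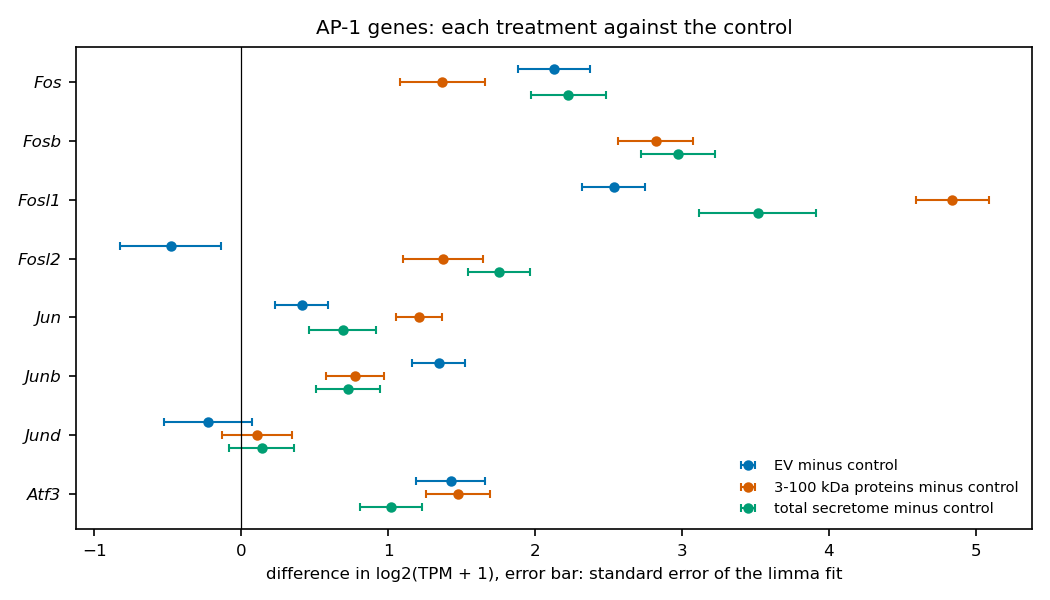
Points give the difference of each treatment from the control in log2(TPM + 1), and bars the standard error of the limma fit on 3 against 3 libraries. Fosl1 differs most with the 3-100 kDa proteins (4.84), Junb most with EV (1.34), and Jund lies within 1 standard error of 0 for all 3 treatments. Fosb after EV and Batf3 were not tested and have no point.

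How many members stood apart from the control was counted with the fold change over 1.5 and p under 0.05 of the study's results, with p taken here as the unadjusted p of limma on log2(TPM + 1). It was met by 4 of 7 tested members after EV (Fos, Fosl1, Junb and Atf3), beside 2.15% of all 12754 genes tested. With the 3-100 kDa proteins it was met by 7 of 8, all but Jund, beside 10.0% of all genes, and with the secretome by 7 of 8, again all but Jund, beside 8.08%. All of these were higher than in the control. At a false discovery rate (FDR) under 0.05 over all genes, the members were Fos and Fosl1 after EV (0.141% of all genes), Fosb, Fosl1, Fosl2, Jun and Atf3 with the 3-100 kDa proteins (3.31%) and Fos, Fosb, Fosl1 and Fosl2 with the secretome (1.97%). Every treated library lay above every control for 4, 7 and 7 members, beside 3.24%, 10.7% and 11.4% of all genes. After EV neither Fos nor Fosl1 passed the FDR threshold without EV replicate 2 or 3 or control replicate 1 or 3, and Fos did not without EV replicate 1 or control replicate 2. With the replicate number as a block no gene passed it in limma after EV (365 at an unadjusted p under 0.05). With the 3-100 kDa proteins Fosb and Fosl1 alone passed it without replicate 2 or 3 of that group or control replicate 1, and Fosl2 and Atf3 did not with the block. Fosl2 passed it in no fit with 1 library left out, nor with a pseudocount of 0.1 or with no filter. Atf3 also did not pass it without control replicate 3. With the secretome Fosb alone passed it without secretome replicate 2, and Fosb and Fosl1 alone without replicate 3. Jun no longer met the unadjusted criterion with the secretome without secretome replicate 2 or 3 or control replicate 1 or 3. The members were chosen on these contrasts, so nothing is read from these counts. The 3 comparisons share their 3 control libraries.

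The median difference of the tested members was 1.34 after EV, 1.37 with the 3-100 kDa proteins and 1.39 with the secretome, while the medians over all tested genes were −0.01, −0.02 and −0.01. Fosb, Fosl1, Fosl2 and Atf3 did not reach 1 TPM in all 3 control libraries. Fosb, Fosl1 and Atf3 therefore passed the filter only through treated groups and are in these medians and counts, apart from Fosb after EV, so neither is support for a difference. Fosl2 too would not have passed on its control libraries alone.

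The treatments were then set against each other. Between EV and the 3-100 kDa proteins, 5 of 8 tested members met the unadjusted criterion, beside 5.14% of all genes. Fos was higher after EV by 0.77 ± 0.26, and Fosb, Fosl1, Fosl2 and Jun were lower, with differences of −2.67 ± 0.26, −2.31 ± 0.23, −1.85 ± 0.36 and −0.79 ± 0.15. With a pseudocount of 0.1 those of Fosb and Fosl2 were −4.59 and −3.38. Atf3 differed by −0.04 ± 0.22 and Junb by 0.58 ± 0.20. Fosb and Fosl1 passed the FDR threshold, beside 0.533% of all genes. Fosb, below 1 TPM in every EV library, and Fosl2, above it in only 1, passed the filter only through the 3-100 kDa group. Neither Fosb nor Fosl1 passed the FDR threshold without replicate 2 or 3 of either group. With the replicate number as a block, 341 genes in place of 68 passed it, and Jun joined Fosb and Fosl1. Without replicate 1 of the 3-100 kDa proteins, Fos no longer met the unadjusted criterion.

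Between EV and the secretome, Junb was higher after EV (0.63 ± 0.22), and Fosb (−2.82 ± 0.26), Fosl1 (−0.98 ± 0.39) and Fosl2 (−2.23 ± 0.31) were lower. With a pseudocount of 0.1 the differences of Fosb and Fosl2 were −4.75 and −3.84. Junb, Fosb, Fosl1 and Fosl2, 4 of 8 members, met the unadjusted criterion, beside 3.98% of all genes, and Fosb alone passed the FDR threshold, beside 0.188%. Fosb and Fosl2 passed the filter only through the secretome group, and Fosb did not pass the FDR threshold without EV replicate 2 or secretome replicate 2 or 3. Fos differed by −0.08 ± 0.22. Leaving out any 1 library left 2 or 3 members past the unadjusted criterion. Fosl1 was lost without any 1 of the EV libraries or without secretome replicate 2 or 3, and Junb without EV replicate 1 or 3. These contrasts also chose the members, so nothing is read from the counts between treatments. Without secretome replicate 1, which was the lowest of its group for Fos, Fosb, Fosl1, Jun and Junb, the difference of Fosl1 was −1.44 and that of Junb, 0.42, no longer met the criterion.

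Between the secretome and the 3-100 kDa proteins, Fos was higher (0.86 ± 0.27) and Fosl1 lower (−1.32 ± 0.40) with the secretome, and these 2 of 9 members met the unadjusted criterion, beside 1.25% of all genes. None passed the FDR threshold in limma, beside 0.0157% of all genes, and none did with the replicate number as a block, where 5 genes in place of 2 passed. Fosb (0.15 ± 0.26), Junb (−0.04 ± 0.23) and Jund (0.04 ± 0.12) lay within 1 standard error of 0. Without secretome replicate 1, Fosl1 differed by −0.85 and Fos by 1.07.

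**Figure D3:**
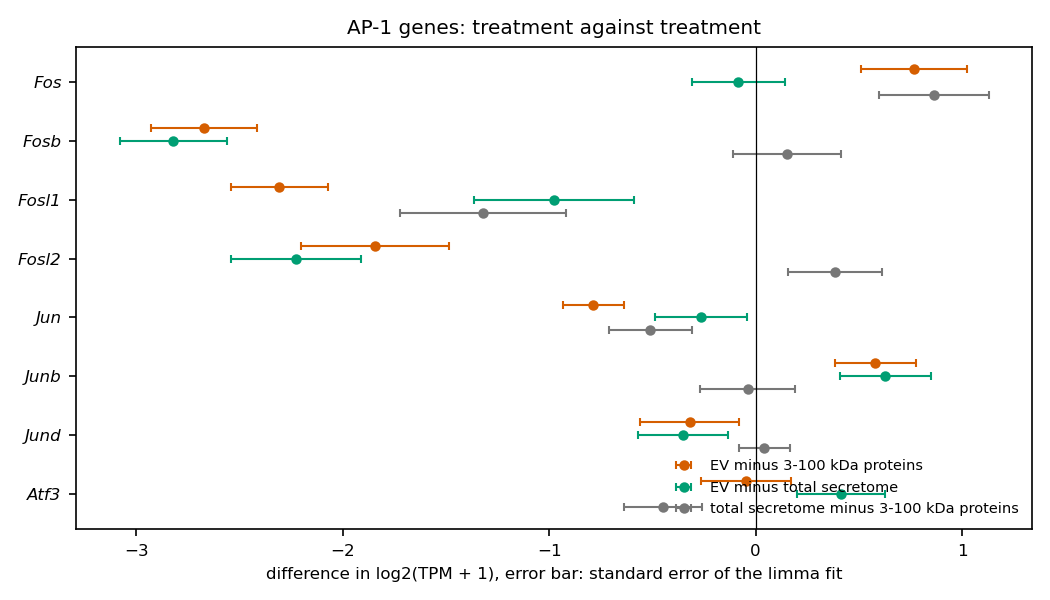
Points give the difference between each pair of treatments in log2(TPM + 1), and bars the standard error of the limma fit on 3 against 3 libraries. Fosb, Fosl1 and Fosl2 are lower after EV than with either other treatment, Junb is higher after EV, and Fosb does not differ by more than 1 standard error between the secretome and the 3-100 kDa proteins.

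The make-up of the family followed from these levels. The summed level of the 9 genes was 113 to 195 TPM in the control, 149 to 207 TPM after EV, 254 to 262 TPM with the 3-100 kDa proteins and 198 to 249 TPM with the secretome. Jun family transcripts formed most of the sum in every library. The Fos family held 2.55 to 4.26% of it in the control, 13.3 to 14.3% after EV, 15.0 to 24.4% with the 3-100 kDa proteins and 16.6 to 22.9% with the secretome, and no control library reached a treated one.

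Within the Fos family, Fos itself held 61.2 to 81.6% of the family's TPM in the control and 72.3 to 79.2% after EV. It held 19.1 to 21.7% with the 3-100 kDa proteins and 41.5 to 47.1% with the secretome. Fosl1 held 56.5 to 58.1% with the 3-100 kDa proteins, against 15.8 to 26.1% after EV and 17.0 to 31.1% with the secretome. The predominant Fos family transcript was therefore Fosl1 with the 3-100 kDa proteins and Fos in the other conditions. Fosb held 12.5 to 14.1% and 16.0 to 17.1% with the 3-100 kDa proteins and the secretome but at most 1.61% after EV.

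Within the Jun family, Jund held 65.0 to 72.1% of the TPM in the control, 48.1 to 64.1% after EV, 45.9 to 56.4% with the 3-100 kDa proteins and 52.8 to 66.1% with the secretome, whose replicate 1 lay within the control range. Jun held 39.8 to 49.8% with the 3-100 kDa proteins, against 25.4 to 30.6% in the control. Its share was 27.1 to 43.4% after EV and 29.7 to 41.4% with the secretome, both overlapping with the 3-100 kDa range. Junb held 8.54 to 11.4% after EV, above its share in any other library, where it was at most 5.78%.

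**Figure D4:**
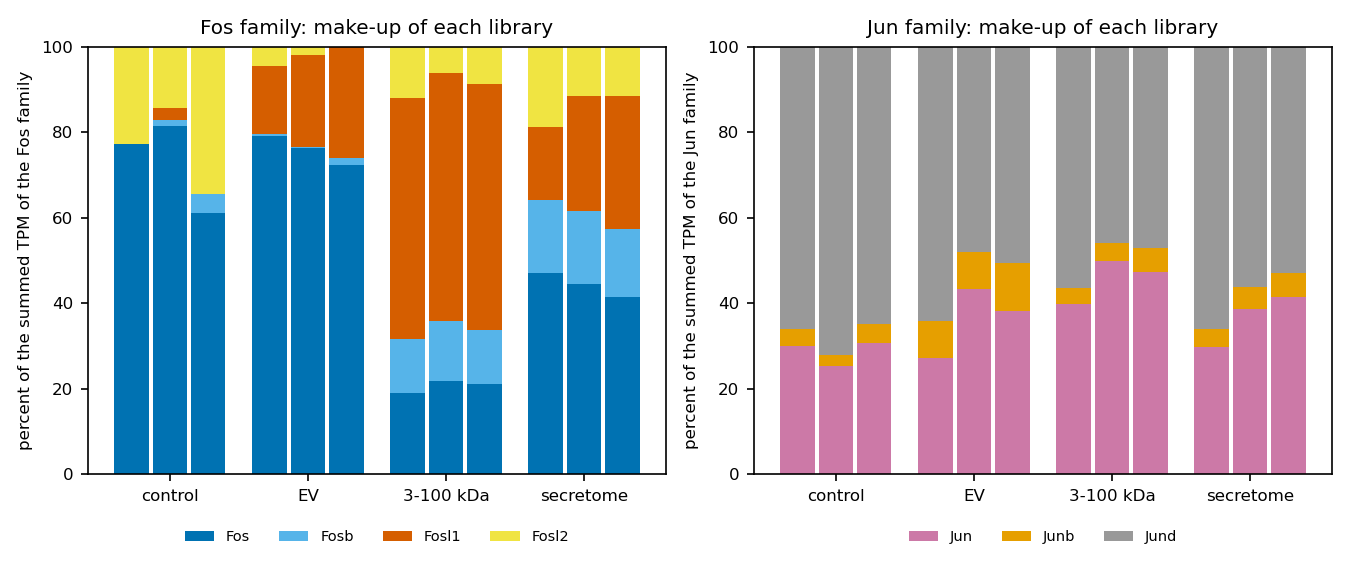
Stacked bars give the share of each gene in the summed TPM of the Fos family (left) and Jun family (right) in each of the 12 libraries, with 3 bars per condition. Fosl1 fills over 56% of the Fos family in the 3-100 kDa libraries, and Fos over 61% in the control and EV libraries.

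Some members varied together across the 12 libraries and others did not. The libraries include the treatment differences, so each correlation is a description. Pearson's r on log2(TPM + 1) was 0.92 for Fosl1 and Jun, 0.91 for Fosb and Fosl2, 0.84 for Fos and Junb and 0.83 for Junb and Atf3. It was 0.12 for Fosb and Junb, −0.10 for Fosl2 and Junb and −0.25 for Junb and Jund, and Jund reached at most 0.43 with any member. Among 13261 genes, those most like Fos over the 12 libraries were Tnfrsf1a, a receptor for tumour necrosis factor (r = 0.971), Id1 (0.952) and Socs3, an inhibitor of cytokine signalling (0.945). Those most like Fosl1 were Ehd4 (0.988), Ptrf (0.983) and the ERK phosphatase Dusp6 (0.981). For Jun they were Rpia (0.964), Rgs16 (0.959) and Myl12a (0.956), and for Atf3 they included Gbp2 (0.961) and Pdpn (0.934).

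Other transcription factors of the same basic leucine zipper class can pair with, or compete with, AP-1 proteins. Of 29 listed genes 27 were tested, and 3 met the unadjusted criterion as higher after EV (Cebpd, Maff and Atf1), 11 with the 3-100 kDa proteins and 9 with the secretome. Among all genes tested 1.56%, 6.64% and 5.54% were higher by this criterion. The last comparison also had lower genes, among them Maf. At the FDR threshold in limma the numbers higher were 0, 6 and 2. The median difference of the list was 0.11, 0.36 and 0.24. The number of 11 fell to 5 without replicate 2 of the 3-100 kDa group, to 6 without its replicate 3 and to 6 without control replicate 1.

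Cebpd, a C/EBP factor of the acute phase response, was highest after EV, at 15.8, 11.6 and 8.03 TPM against 1.82, 3.81 and 0.502 TPM in the control. It was at 2.10, 3.30 and 2.57 TPM with the 3-100 kDa proteins and at 6.62, 5.48 and 7.63 TPM with the secretome. The EV libraries lay above all others, but the difference from the control did not pass the FDR threshold (2.19 ± 0.44, adjusted p = 0.266 in limma), nor did the one from the 3-100 kDa proteins (1.76 ± 0.27, adjusted p = 0.0575 in limma), although the latter passed with the replicate number as a block (adjusted p = 0.0331 in limma).

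Maff, a small Maf protein without a transactivation domain, was below 1 TPM in every control library and entered the filtered test only through the treated groups. In the fit with no filter it rose with the 3-100 kDa proteins (2.40 ± 0.31, adjusted p = 0.0192 in limma) and with the secretome (2.19 ± 0.35, adjusted p = 0.0485 in limma). Its mean levels were 0.449 ± 0.330 TPM (SD, n = 3) in the control, 2.31 ± 0.656 after EV, 6.68 ± 2.20 with the 3-100 kDa proteins and 5.79 ± 2.43 with the secretome. Its difference after EV was 1.18 ± 0.26 in the same fit (adjusted p = 0.454 in limma). Atf1, a relative of CREB, rose with the 3-100 kDa proteins (1.09 ± 0.22, adjusted p = 0.0467 in limma), while its difference with the secretome was 0.86 ± 0.17 (adjusted p = 0.0515 in limma).

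Genes known as targets of AP-1 were taken from a list of 35 written from general knowledge. This list, like the others, was chosen with earlier results of these libraries known, so nothing is read from its counts. After EV 10 of 19 tested genes met the unadjusted criterion, with the 3-100 kDa proteins 18 of 23 and with the secretome 14 of 21, all of them higher, beside 1.56%, 6.64% and 5.54% of all genes higher. The filter let in 4, 8 and 6 of these genes although their control mean was under 1 TPM, that is, through the treated group, and 3, 7 and 6 of them were among those called. Of the other 15 genes tested each time 7, 11 and 8 were called. The median difference was 0.86, 1.30 and 1.20 over the tested genes and 0.62, 1.09 and 0.68 over those 15. At the FDR threshold 3, 10 and 8 were higher.

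The 3 genes past the FDR threshold after EV were Timp1, an inhibitor of matrix metalloproteinases, Spp1, which encodes osteopontin, and Cd44, the hyaluronan receptor. Timp1 was at 9.24, 19.7 and 8.90 TPM in the control and at 101, 125 and 95.4 TPM after EV, a difference of 3.06 ± 0.29 (adjusted p = 0.0154 in limma). It was at 218, 200.1 and 259.9 TPM with the 3-100 kDa proteins (4.17 ± 0.30, adjusted p = 0.00131 in limma) and at 97.0, 170.1 and 169 TPM with the secretome (3.49 ± 0.36, adjusted p = 0.00585 in limma). No treated library of Timp1 overlapped with a control. After EV none of the 3 genes passed the FDR threshold with the replicate number as a block or without any 1 library other than control replicate 2, and Cd44 did not without that one either.

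Spp1, under 1 TPM on average in the control, entered the filtered test only through the treated groups. In the fit with no filter it rose by 2.34 ± 0.26 with the 3-100 kDa proteins (adjusted p = 0.0115 in limma) and by 2.45 ± 0.26 with the secretome (adjusted p = 0.0171 in limma). Its difference after EV, 2.63 ± 0.28, did not pass the FDR threshold in that fit (adjusted p = 0.0534 in limma). Its means were 0.700 ± 0.466 TPM (SD, n = 3) in the control, 9.33 ± 1.88 TPM after EV, 7.30 ± 1.31 TPM with the 3-100 kDa proteins and 8.03 ± 1.89 TPM with the secretome. Cd44 went from 2.68 ± 1.96 TPM to 37.1 ± 13.9 TPM after EV (3.43 ± 0.42, adjusted p = 0.0466 in limma), 88.7 ± 21.9 TPM with the 3-100 kDa proteins (4.74 ± 0.38, adjusted p = 0.00143 in limma) and 57.9 ± 5.34 TPM with the secretome (4.15 ± 0.34, adjusted p = 0.00312 in limma).

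Between EV and the 3-100 kDa proteins, 13 of 23 listed targets met the unadjusted criterion as lower after EV and 1, the growth factor gene Csf1, as higher, beside 5.14% of all genes in either direction. Csf1 was at 6.27, 10.6 and 7.97 TPM after EV against 4.21, 5.82 and 4.19 TPM, a difference that did not pass the FDR threshold (0.66 ± 0.22, adjusted p = 0.370 in limma). The 3 past the FDR threshold are named after their values were seen. Plau, which encodes urokinase, was at 3.14, 4.24 and 5.0 TPM after EV against 41.1, 54.4 and 97.1 TPM with the 3-100 kDa proteins (−3.62 ± 0.36, adjusted p = 0.0136 in limma). The growth factor gene Hbegf was at 18.1, 24.4 and 24.0 TPM against 95.0, 116 and 185 TPM (−2.50 ± 0.29, adjusted p = 0.0215 in limma). Ccnd1, which encodes cyclin D1, was at 60.0, 88.6 and 65.7 TPM against 158, 211 and 182 TPM (−1.39 ± 0.17, adjusted p = 0.0244 in limma). For each of these 3 genes the groups did not overlap. Between EV and the secretome 7 of 21 targets met the unadjusted criterion, all lower after EV, beside 3.98% of all genes. Between the secretome and the 3-100 kDa proteins 7 of 23 did, all lower with the secretome, beside 1.25%. None of these passed the FDR threshold in limma. With the replicate number as a block, 10 targets in place of 3 were past the FDR threshold as lower after EV than with the 3-100 kDa proteins. These included Timp1 (−1.10 ± 0.16, adjusted p = 0.0318 in limma) and Cd44 (−1.30 ± 0.12, adjusted p = 0.00941 in limma). In the same fit Plau was lower with the secretome than with the 3-100 kDa proteins (−2.41 ± 0.16, adjusted p = 0.0197 in limma), the only target past the threshold there.

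**Figure D5:**
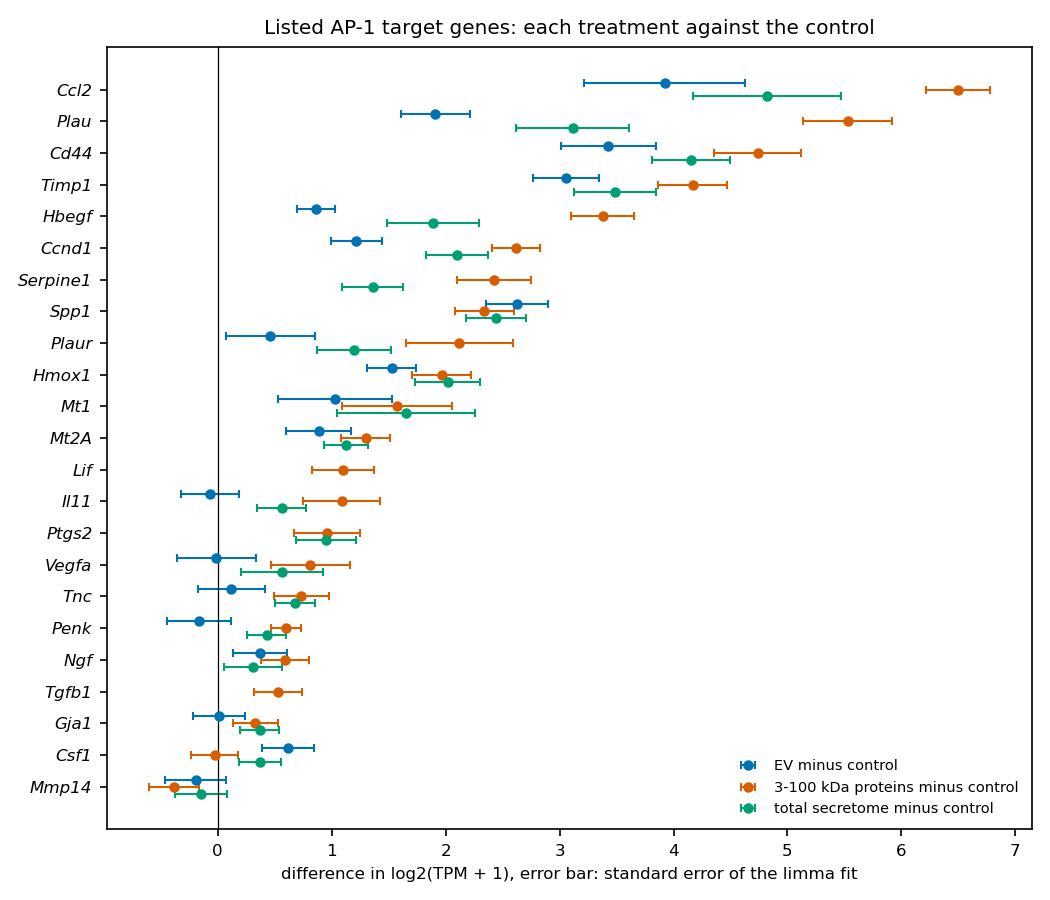
Points give the difference of each treatment from the control in log2(TPM + 1) for the listed AP-1 targets, ordered by the difference with the 3-100 kDa proteins, and bars the standard error of the limma fit. Ccl2 and Plau lie highest with the 3-100 kDa proteins, at 6.50 and 5.53. Both have a control mean under 1 TPM, so they were tested only through the treated groups and their sizes depend on the pseudocount, and genes below the filter in a comparison have no point there.

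Atf3 is also known from the response of neurons to nerve injury, and 19 of 20 listed injury genes were in the files, of which 16 were tested against the control. The unadjusted criterion was met as higher by 3 after EV, 4 with the 3-100 kDa proteins and 5 with the secretome, beside 1.56%, 6.64% and 5.54% of all genes, and by none as lower. Hspb1 and Gal, among those called each time, had control means under 1 TPM. At the FDR threshold in limma 0, 2 and 2 were higher, and the 2 with the 3-100 kDa proteins were Hspb1 and Gal. The median of the list was −0.01, 0.17 and 0.08. Of the other 14 genes tested each time 1, 2 and 3 met the unadjusted criterion. Their median was −0.017, 0.095 and −0.026.

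Socs3 was at 6.72, 5.40 and 6.10 TPM after EV against 1.45, 1.18 and 0.699 TPM in the control, with no overlap but short of the FDR threshold (1.75 ± 0.23, adjusted p = 0.0602 in limma). It rose with the secretome (1.31 ± 0.23, adjusted p = 0.0393 in limma), and with the replicate number as a block the same difference was not past the threshold (1.31 ± 0.25, adjusted p = 0.0643 in limma). The small heat shock gene Hspb1 and the neuropeptide gene Gal entered the filtered test only through the treated groups, so values of the fit with no filter are given for them against the control. Hspb1 rose with the 3-100 kDa proteins (2.32 ± 0.30, adjusted p = 0.0192 in limma) and the secretome (3.03 ± 0.36, adjusted p = 0.0208 in limma). After EV it was at 25.9, 11.8 and 3.98 TPM against 0.709, 0.865 and 0 TPM in the control (3.03 ± 0.62, adjusted p = 0.382 in limma). Gal rose with the 3-100 kDa proteins (2.27 ± 0.29, adjusted p = 0.0172 in limma) and, in the filtered test, was lower after EV than with them (−1.41 ± 0.19, adjusted p = 0.0384 in limma).

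The regulators of AP-1, a list of MAP kinases, serum response factor and its partners, were described at the transcript level. The median difference of the list was 0.01 after EV, 0.01 with the 3-100 kDa proteins and 0.00 with the secretome. The unadjusted criterion was met by 1 of 32 tested genes after EV (Elk3), by 3 of 31 with the 3-100 kDa proteins (among them Elk3, higher, and Map2k6, lower) and by 2 of 31 with the secretome (Elk3 higher, Map2k6 lower), shares near the 2.15%, 10.0% and 8.08% of all genes. Elk3, an ETS partner of serum response factor, was at 3.69, 3.50 and 3.36 TPM in the control and at 8.97, 12.1 and 9.84 TPM with the 3-100 kDa proteins (1.34 ± 0.18, adjusted p = 0.0103 in limma). After EV it was at 4.84, 7.78 and 6.12 TPM (0.65 ± 0.21, adjusted p = 0.9998 in limma) and with the secretome at 6.63, 11.5 and 8.88 TPM (1.14 ± 0.23, adjusted p = 0.0607 in limma), and every treated library lay above every control.

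Map2k6, a kinase that activates p38, fell by 0.94 with the 3-100 kDa proteins (SE 0.15, adjusted p = 0.0227 in limma) and by 0.78 with the secretome (SE 0.13, adjusted p = 0.0292 in limma), the latter not past the threshold with the replicate number as a block (adjusted p = 0.0546 in limma). It was named after its values were seen. Mapk14, which encodes p38 alpha, was at 24.6 to 30.3 TPM in the control and its difference after EV was 0.23 ± 0.16 (adjusted p = 0.9998 in limma). Elk4 differed by 0.25 ± 0.19 after EV (adjusted p = 0.9998 in limma). These are transcript levels, and kinase activity was not measured in these files.

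Markers of the cell types were set beside these results. The summed neuronal level was 3877 to 4030 TPM in the control, 3694 to 4055 after EV, 3260 to 3811 with the 3-100 kDa proteins and 3157 to 3951 with the secretome. The summed astrocyte level was 1019 to 1465, 1276 to 1698, 1216 to 1613 and 1407 to 1796 TPM in that order. None of the 10 neuronal and 8 astrocyte markers passed the FDR threshold in limma in any of the 6 comparisons. By the unadjusted criterion no neuronal marker was called, and the astrocyte marker Gfap was higher than in the control after EV (1.58 ± 0.51, adjusted p = 0.9998 in limma) and with the secretome (1.40 ± 0.55, adjusted p = 0.269 in limma). The 7 fibroblast and pericyte markers together summed to only 2.055 to 4.278 TPM in a library. The pericyte marker Pdgfrb was lower with the 3-100 kDa proteins (−1.42 ± 0.24, adjusted p = 0.0239 in limma), past the FDR threshold, and by the unadjusted criterion also after EV and with the secretome. In the first of these comparisons Pdgfrb passed the filter only with the help of the control libraries. The fibroblast marker Col1a1 was higher with the 3-100 kDa proteins by the unadjusted criterion (1.10 ± 0.24, adjusted p = 0.0580 in limma). Col1a1 was not tested against the control for EV or the secretome, so it passed the filter only through the 3-100 kDa group. The oligodendrocyte lineage marker Olig1 was lower with the 3-100 kDa proteins than in the control by that criterion (−0.59 ± 0.21, adjusted p = 0.199 in limma), and lower than in both other treatments. The sum for the oligodendrocyte lineage was 175 to 223 TPM in the control, 186 to 226 after EV, 121 to 185 with the 3-100 kDa proteins and 231 to 256 with the secretome. The part of these shifts in the AP-1 values was not tested.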

How the data were processed

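RNA from 12 libraries, 3 per condition, was sequenced by the study. According to the methods, the authors used FastQC for read quality, Trimmomatic and Cutadapt for trimming, Salmon for quantification against rat transcripts (Rnor 6.0, genome as decoy) and tximport for sums per gene. The labels name a strand-specific DNBSEQ library, and the methods name another kit and instrument. The deposited values carry no unit name. They were read as TPM because each library sums to 1000000 and values are not whole. Depth is therefore unknown. The authors tested counts with edgeR, which TPM does not allow. Human RNA carried by the vesicles or secretome was not separated here from rat RNA.

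Rows of one name were summed. A gene was tested where 3 or more libraries of a comparison reached 1 TPM. Median-of-ratios factors put the libraries of a comparison on 1 scale before log2(TPM + 1) was taken. The fit for each pair of conditions used its own 6 libraries and limma 3.58.1 in R 4.3.3 (eBayes with a mean-variance trend), with Benjamini-Hochberg adjustment over all genes tested and an FDR threshold of 0.05. The unadjusted criterion was p under 0.05 and a fold over 1.5 on that scale. The fit was tested on simulated data. Alternatives were a pseudocount of 0.1, no filter, TPM not rescaled, 1 fit of all 12 libraries, a replicate block and leaving out each library.

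The members and lists were chosen with earlier results of these data known. All members are named. From the lists of partners, targets, injury genes and regulators, the 3 tested genes of lowest p in EV against control are named, and for Fos, Fosl1, Jun and Atf3 the 3 genes of highest Pearson r. Some genes that these rules or counts cover are not reported here. Others are said to be named after their values were seen, or are named because a count was 5 or fewer. Replicate numbers were checked by the correlation, over genes, between what remained of libraries of 1 number after their group means were taken off. All 3 correlations exceeded 0.1 for the secretome and control (0.14 to 0.24), EV and the 3-100 kDa proteins (0.25 to 0.55), EV and the secretome (0.18 to 0.24) and the secretome and the 3-100 kDa proteins (0.17 to 0.34). The listed genes were also fitted with the replicate block in these comparisons, a choice made from the data and not from the labels. The correlations ranged from −0.16 to 0.47 for EV and control and from −0.22 to 0.22 for the 3-100 kDa proteins and control. Libraries of different numbers were not correlated. Numbers that marked shared cultures would pair all conditions, so the correlations do not settle whether libraries are paired. Standard errors of the members come from the fit without the block. Promoters came from RefSeq (GRCr8).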

Additional observations from a re-analysis of the deposited data

How the results depend on the processing

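The 528 member differences recomputed under the alternatives kept their sign where they had been called. In 512 they moved by less than the spread between replicates, in 16 by more and in 0 did a called value change sign. The pseudocount of 0.1 moved Fosb and Fosl2 most between treatments, to −4.59 and −3.38 for EV against the 3-100 kDa proteins and to −4.75 and −3.84 for EV against the secretome. It also gave 2.16, 2.22 and 1.64 for Atf3 against the control in the order EV, 3-100 kDa proteins and secretome. Without a filter, Batf3 also met the unadjusted criterion in the 3-100 kDa proteins against the control and in EV against the 3-100 kDa proteins.

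With 1 library left out at a time, the number of members meeting the unadjusted criterion stayed at 4 for EV against control and at 7 for the 3-100 kDa proteins against control, and ranged from 6 to 7 for the secretome against control, 4 to 6 for EV against the 3-100 kDa proteins, 2 to 3 for EV against the secretome and 2 to 3 for the secretome against the 3-100 kDa proteins. Jun was lost for the secretome against control without secretome replicate 2 or 3 or control replicate 1 or 3. Fos was lost for EV against the 3-100 kDa proteins without replicate 1 of the latter. For EV against the secretome, Fosl1 and Junb were lost without EV replicate 1 (where Jund was gained) or 3, Fosl1 without EV replicate 2 or secretome replicate 2 or 3, and Junb without secretome replicate 1. The difference of Jund from the control, not called, ranged from −0.48 to 0.04 for EV, −0.04 to 0.37 for the 3-100 kDa proteins and −0.01 to 0.40 for the secretome.

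The number of all genes past the FDR threshold in limma depended on single libraries. It ranged from 0 to 27 for EV against control, 127 to 459 for the 3-100 kDa proteins and 38 to 768 for the secretome against control, 3 to 71 for EV against the 3-100 kDa proteins, 9 to 56 for EV against the secretome and 0 to 4 for the secretome against the 3-100 kDa proteins. In 1 fit of all 12 libraries the 6 numbers were 59, 940, 539, 183, 58 and 0 (253 at an unadjusted p under 0.05), in that order. With the replicate block, EV against control had 0 (365 at an unadjusted p under 0.05), the 3-100 kDa proteins against control 192, EV against the 3-100 kDa proteins 341 in place of 68 and the secretome against the 3-100 kDa proteins 5 in place of 2. The block left the number of members meeting the unadjusted criterion as it was in all 6 comparisons. Without a filter EV against the 3-100 kDa proteins had 43, and without rescaling the secretome against the 3-100 kDa proteins had 4. The causes of these shifts were not tested. Depth is unknown, so what it limits could not be stated.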

Other observations

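Other immediate early genes, which like Fos respond to signals without new protein synthesis, were counted from a list of 31 of which 30 were in the files. By the unadjusted criterion 10 of 26 tested genes were higher after EV, 22 of 29 with the 3-100 kDa proteins and 19 of 30 with the secretome, and 1 was lower each time, the antiproliferative gene Btg2. Among all genes 1.56%, 6.64% and 5.54% were higher by this criterion. Of these listed genes 4, 7 and 8 were tested although their control mean was under 1 TPM, that is, through the treated group, and 2, 7 and 6 of them were among those called. Of the other 22 genes tested each time 9, 16 and 14 were called, Btg2 included. The median difference of those 22 was 0.24, 1.14 and 0.94. At the FDR threshold in limma 0 (10 and 1 by the unadjusted criterion), 14 and 11 were higher. With the replicate number as a block, 11 in place of 4 were lower after EV than with the 3-100 kDa proteins at the FDR threshold. The genes named in this section were named after their values were seen.

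The transcription factor gene Egr1 was at 13.0, 11.8 and 9.94 TPM in the control and at 24.0, 24.0 and 23.7 TPM after EV (0.98 ± 0.15, adjusted p = 0.0969 in limma). It was at 67.2, 119 and 94.3 TPM with the 3-100 kDa proteins (2.91 ± 0.22, adjusted p = 0.00131 in limma) and at 35.1, 62.3 and 64.4 TPM with the secretome (2.10 ± 0.27, adjusted p = 0.0116 in limma). Its relative Egr2 was at 0.455, 1.99 and 1.55 TPM after EV, against 14.2, 29.1 and 28.6 TPM with the 3-100 kDa proteins (−3.44 ± 0.38, adjusted p = 0.0182 in limma) and 9.69, 16.5 and 16.3 TPM with the secretome (−2.75 ± 0.35, adjusted p = 0.0336 in limma). Egr2 was below 1 TPM in EV replicate 1, so in both comparisons it passed the filter only through the other treatment. Libraries of EV did not overlap with those of either other treatment for Egr1 or Egr2. Btg2 was at 18.6, 31.9 and 18.5 TPM in the control and at 10.5, 15.5 and 8.63 TPM after EV, with no overlap but short of the FDR threshold (−0.94 ± 0.28, adjusted p = 0.976 in limma).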
